A study of Mus musculus with 28 samples.

Results

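Pericyte-like mural cells were found in the single-cell RNA sequencing of sorted mouse bone and marrow cells by the transcripts they carried. A cell was counted as mural when its unique molecular identifiers (UMIs, each marking 1 captured transcript) for Rgs5, Acta2, Tagln, Myh11 and Tinagl1 together made up at least 0.5% of all its UMIs and numbered at least 3. Of 6205 cells with at least 200 detected genes in 4 libraries, 87 met this rule, or 1.40%. The study used the loss of Zmpste24 (Z24), the protease that matures the nuclear lamina protein prelamin A, as a model of premature ageing and asked which skeletal cells account for the bone loss of age. Cells negative for CD45, Ter119 and CD31 and positive for the red reporter Ai9 had been sorted from digested bone and marrow, so that blood and endothelial cells should be largely missing and every cell should descend from a Cre-expressing cell. The 4 libraries were Prx1Cre at 8 weeks of age, OsxCre at 8 weeks, the 16-week control (Prx1Cre; Z24fl/+) and the 16-week conditional knockout (CKO, Prx1Cre; Z24fl/fl), all carrying the Rosa26 Ai9 reporter. Prx1Cre acts in limb bud mesenchyme and its descendants, and OsxCre in osteoblast precursors and their descendants. The control mice were not free of the floxed allele, as they carried it on 1 chromosome, and each 16-week library held the cells of several mice. The labels name the 8-week genotypes as PrxCre; Z24fl/fl and OsxCre; Z24fl/fl, whereas the study's methods describe mice with the Cre and the reporter alone. The 8-week libraries are therefore called by their Cre driver. There was 1 library per group, so no difference between groups could be tested.

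Mural cells wrap the outside of blood vessels. Vascular smooth muscle cells form contractile layers around arteries and arterioles and are rich in smooth muscle actin (Acta2), smooth muscle myosin (Myh11) and transgelin (Tagln). Pericytes sit on capillaries and venules within the basement membrane that they share with the endothelium, are known by Pdgfrb, Cspg4 (NG2), Rgs5, Kcnj8 and Abcc9, and depend on Notch3 signalling from endothelial ligands. In bone marrow a further perivascular population, the Cxcl12-rich stromal cells that carry Lepr, lies along the sinusoids and makes niche factors for blood stem cells.

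The targeted gene was read at the limit of detection. Zmpste24 had 0 UMIs in the members from the 8-week libraries, 1 UMI in control members and 0 in CKO members. Among all other cells it had 27 UMIs (17.6 per 1000000) in Prx1Cre, 45 (44.0) in OsxCre, 69 (19.3) in control and 11 (3.19) in CKO. The CKO to control ratio in these other cells was 0.165 (95% interval 0.0789 to 0.315, exact conditional binomial interval). The gene was thus lowest in the library labelled CKO and was not low in either 8-week library. The floxed part is an internal exon, while these libraries read the 3′ end of transcripts, so the counts need not cover the deletion and are no direct check of it. Intervals on counts throughout cover counting error only.

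Mural cells were rare in every library. They numbered 17 of 993 cells in Prx1Cre (1.71%, exact Clopper-Pearson 95% interval 1.00 to 2.73), 18 of 782 in OsxCre (2.30%, 1.37 to 3.61), 18 of 2068 in control (0.870%, 0.517 to 1.37) and 34 of 2362 in CKO (1.44%, 0.999 to 2.01). The share was highest in OsxCre and lowest in control, and the intervals of the 2 libraries of each age overlapped. Members held a median of 775 UMIs in Prx1Cre, 844 in OsxCre, 1219.5 in control and 1194 in CKO, against 1046.5, 931, 1428 and 1277 in all other cells. Members were therefore somewhat shallower than their neighbours in each library. The libraries shared between 0 and 10 cell barcodes per pair, and none of the shared barcodes was a member.

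The 5 genes that chose the cells are described here without a test. Rgs5, a brake on G protein signalling and a pericyte marker, was summed over members to 5606 CPM (counts per 1000000 UMIs of the same cells, without the rule genes in the total for all genes but these 5) in Prx1Cre, 17669 in OsxCre, 7460.4 in control and 6308 in CKO, against at most 28.1 in all other cells. Acta2 stood at 10127 in Prx1Cre, 1138 in OsxCre, 10077 in control and 8658 in CKO. OsxCre was thus highest for Rgs5 and lowest for Acta2. Tagln followed Acta2, with 5003, 719, 4297 and 3234 in the same order. Myh11 (1085, 539, 1211 and 1125) and Tinagl1, a secreted basement membrane protein (482, 419, 1249.9 and 743), were the least abundant of the 5. The summed share of the 5 genes ran from 0.50% to 5.06% of a member's UMIs with a median of 1.93%. Members just inside the threshold stood at 0.50% and 0.529%, and the non-members just outside it at 0.499% and 0.480%. Of the 6118 other cells, 289 (4.72%) carried any UMI of the 5 genes, and 234 of these carried only 1.

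Few transcripts of other cell types were found in the members. Endothelial markers summed to 2 UMIs over all 87 cells (1 of them Plvap), with Egfl7, Cldn5 and Cdh5 at 0. Leukocyte markers summed to 1 UMI (S100a9), with Ptprc, Lyz2, Cd74 and S100a8 at 0. All 7 skeletal muscle genes and all 4 Schwann cell genes were at 0. Chondrocyte genes gave 9 UMIs (Col2a1 4), periosteal genes 11 (Dcn 8, with Cilp and Clec3b at 0) and haemoglobin and other erythroid genes 14 (Hbb-bs 6). Transcripts of marrow stroma and bone were more plentiful. Marrow stromal markers summed to 294 UMIs, 259 of them Cxcl12, or 2765 CPM against 21204 in other cells. Osteoblast markers summed to 123 UMIs, 91 of them Ibsp, or 1157 CPM against 20364, with Ifitm5 and Dmp1 at 0. By library the marrow stromal sum was 2343 CPM in Prx1Cre, 2324 in OsxCre, 841 in control and 4038 in CKO, and the osteoblast sum was 986, 611, 560.4 and 1701. These sums rested on few cells, and not in CKO alone. A gate like the mural rule, set on 5 markers of each other type, was passed by 8 members for marrow stroma (2 in Prx1Cre, 2 in OsxCre, 0 in control and 4 in CKO) and by 3 members for osteoblasts (1 in control and 2 in CKO), of which the control member also passed the periosteal gate. Without these 3 members the osteoblast sum was 986 CPM in Prx1Cre, 611 in OsxCre, 205 in control and 355 in CKO, and the marrow stromal sum in CKO was 2104. Without the members that passed any other gate the marrow stromal sum was 237 CPM in Prx1Cre (3 UMIs) and 586 in OsxCre (8 UMIs). In control it was 860 and in CKO 1104. Whether the members that passed another gate are doublets was not tested, and no doublet step was run.

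**Figure D1:**
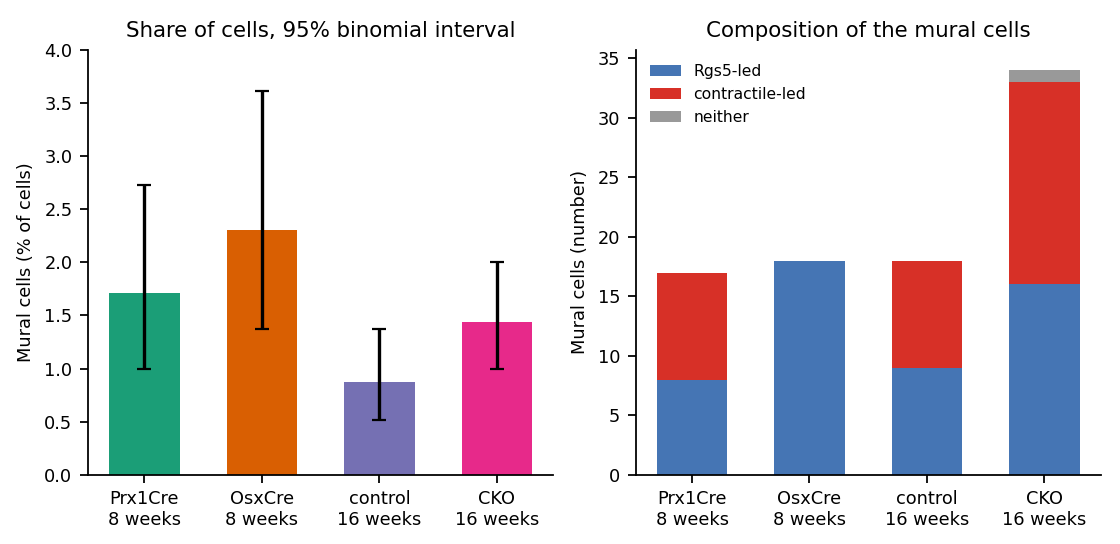
Left, mural cells as a percentage of the cells in each library, with bars for the exact 95% binomial interval. Right, the number of mural cells led by Rgs5, by the contractile genes or by neither. All 18 OsxCre members were Rgs5-led, while each Prx1Cre library held 9 or more contractile-led members.

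The members ranged from cells rich in Rgs5 to cells rich in contractile transcripts. A member was called contractile-led where Acta2, Tagln and Myh11 together had more UMIs than Rgs5, and Rgs5-led in the opposite case. By that measure 35 members were contractile-led, 51 Rgs5-led and 1 neither. Of the Rgs5-led members 27 had no contractile UMI, and of the contractile-led members 21 had no Rgs5 UMI, while 8 members held both in amounts within 2-fold of each other. Whether these are 2 types or the ends of a range was not tested. The contractile-led members numbered 9 of 17 in Prx1Cre, 0 of 18 in OsxCre, 9 of 18 in control and 17 of 34 in CKO. In OsxCre the share of 0 allows up to 18.5% of its members (exact Clopper-Pearson interval), against 52.9% (27.8 to 77.0), 50% (26 to 74.0) and 50% (32.4 to 67.6) in the other libraries. Of all members, 66 carried Rgs5, 51 Acta2, 42 Tagln, 44 Myh11 and 48 Tinagl1, and 30 carried both Rgs5 and Acta2. Across the 87 members the Rgs5 share and the contractile share had a Spearman correlation of -0.709, as a description only, since both are shares of the same UMIs. Deeper members had a larger contractile share (Spearman 0.352). In the plot of both shares per cell many members lie on an axis.

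**Figure D2:**
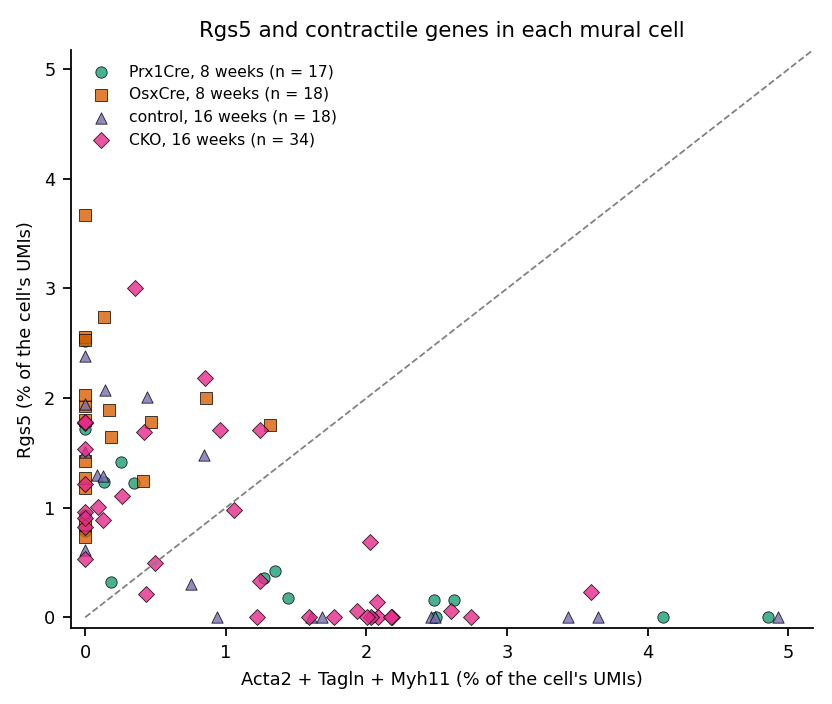
Each point is 1 mural cell, placed by the percentage of its UMIs from Acta2, Tagln and Myh11 (horizontal axis) and from Rgs5 (vertical axis). The dashed line marks equal shares, colours and shapes mark the library, and the OsxCre cells all lie above the line.

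Beyond the 5 genes of the rule, contractile, pericyte, Notch and vascular tone transcripts were more plentiful in mural cells than in all other cells. Pooled over libraries and summed over each list, with no filter, the mural to other ratios were 7.13, 6.50, 3.11 and 16.5. For the marrow niche and osteoblast genes that dominate the sort they were 0.200 and 0.179. Counts were summed per library over members and over all other cells and compared by edgeR's quasi-likelihood test with the library as a block, the rule genes left out. Of 5826 genes tested, 216 were higher in mural cells (3.71%) and 514 lower (8.82%) at an adjusted p under 0.05. The counts were 122 higher without the CKO library, 269 lower without control and 242 lower by DESeq2. The cells were chosen by genes measured in the same cells, so these p-values describe the spread over 4 libraries and not an independent sample of mural cells. The median log2 fold change of all genes tested was -0.45, and it moved to -0.27 with median-of-ratios size factors, so list medians are to be read against it. A list gene could pass the filter on low counts through the members alone, and list counts are given as description.

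Among the genes called and of the same sign in every library, as the choice required, those with the largest log2 fold changes were hardly read in other cells. Ranking by fold change favours such genes. A gene at 0 in other cells passed the filter through the members alone. Likewise a gene at 0 in members passed it through the other cells alone. The genes at 0 on either side are therefore given as description. Olfr558, an olfactory receptor gene also known from vascular smooth muscle, stood at 432 CPM in Prx1Cre members, 245 in OsxCre, 520.4 in control and 389 in CKO, in 32 of the 87 cells. It had no UMI in the 6118 other cells, which makes it at least 1294-fold higher against the limit of 3 counts over all of them. Casq2, the calcium-binding protein of the sarcoplasmic reticulum (18 UMIs), the orphan receptor Gpr20 (16) and H2-M9, a class I histocompatibility gene (15), were likewise at 0 in all other cells and at least 542-fold, 481-fold and 451-fold higher. Olfr558 and H2-M9 belong to large gene families in which near-identical copies can share reads, so their counts are uncertain to that extent. The laminin receptor chain Itga7 (27 UMIs, log2 fold change 8.59 ± 0.62 SE), the epoxide hydrolase Ephx3 (21 UMIs against 3, ratio 632, 189 to 3308), the adhesion molecule Mcam or CD146 (29 UMIs, 8.39 ± 0.61) and the gap junction protein Gja4 (45 UMIs, 7.79 ± 0.55) completed the top 10 together with Pcp4l1 and Sncg of the contractile list. At the other end the 10 genes with the largest negative changes were all at 0 in members. They were the cartilage genes Scrg1, Col11a2, Hapln1, Matn3, Ucma and Sox9, the osteoblast gene Ifitm5, and Pcolce2, Serpina3c and C3. Scrg1, at 386 CPM in other cells, was at least 13.7-fold lower, and Sox9, at 119.7, at least 4.24-fold lower.

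Of the contractile genes that the rule had not used, nearly all that passed the filter were higher. Of 22 on the list 15 passed the filter, 14 were higher and 0 lower, with a median log2 fold change of 3.41. Myl9, the regulatory light chain of smooth muscle myosin, stood at 5919 CPM in Prx1Cre members, 1039.5 in OsxCre, 6525 in control and 5248 in CKO, and at 103, 109, 262 and 310.4 in other cells. The summed level was higher in members than in other cells in each library, though OsxCre members were far below the other members. Myl9 was read in 58 of the 87 members, and in 4 of the 18 from OsxCre. The log2 fold change of Myl9 was 3.96 ± 0.40 (adjusted p = 2.95e-21). The tropomyosin Tpm2 gave 2651, 489, 3443 and 2480.4 in members against 40.3, 35.2, 56.1 and 51.3 in other cells, in the same order (4.96 ± 0.40, adjusted p = 9.88e-33). The same drop in OsxCre was seen for Tpm2. Sncg (8.16 ± 0.49), Pcp4l1 (8.24 ± 0.54), Mustn1 (6.27 ± 0.44), the phosphatase inhibitor Ppp1r14a (6.63 ± 0.51), desmin (Des, 3.70 ± 0.47), Csrp1 (3.41 ± 0.39), filamin A (Flna, 2.26 ± 0.37) and Myl6 (1.65 ± 0.38) were also higher. Tpm1, a tropomyosin of many cell types, was not called (0.42 ± 0.34, adjusted p = 0.527). Calponin (Cnn1), leiomodin (Lmod1) and phospholamban (Pln), classical smooth muscle genes, did not pass the filter. They had 29, 40 and 35 UMIs in members, all 0 in OsxCre members, and Cnn1 had 0.104 CPM in other cells.

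Pericyte genes followed the same direction with a different spread over libraries. Of 18, 17 passed the filter, 13 were higher and 0 lower, with a median of 2.67. Ndufa4l2, a mitochondrial protein of pericytes, stood at 1233 CPM in Prx1Cre members, 1834 in OsxCre, 1441 in control and 779 in CKO, against 178, 50.8, 65.6 and 62.0 in other cells (log2 fold change 3.48 ± 0.36, adjusted p = 2.64e-20). Unlike Myl9, it was highest in OsxCre members. Notch3, the receptor that maintains mural cells, gave 247, 795, 961 and 902 in members against 39.0, 59.6, 104 and 117 in other cells (2.67 ± 0.37, adjusted p = 1.63e-11), so that Prx1Cre members were lowest for it. Art3 (6.29 ± 0.55), Higd1b (6.11 ± 0.51), Rgs4 (5.82 ± 0.46), vitronectin (Vtn, 4.75 ± 0.52), Steap4 (1.88 ± 0.34) and the proteoglycan Cspg4 (2.54 ± 0.52) were higher, as were Kcnj8 (5.98 ± 0.58) and Abcc9 (3.86 ± 0.49), the 2 subunits of the pericyte potassium channel. Pdgfrb, the receptor most often used to define pericytes, was not called. It stood at 308, 856, 641 and 717 in members and at 156, 250.1, 446 and 448 in other cells (0.46 ± 0.36, adjusted p = 0.502).

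In the Notch pathway 9 of 14 genes passed the filter, 6 were higher and 0 lower, with a median of 2.34. The receptors Notch3 and Notch1 (2.40 ± 0.66), the ligand Jag1 (2.15 ± 0.59) and the targets Nrarp (6.85 ± 0.66), Hey2 (4.42 ± 0.66) and Heyl (2.34 ± 0.56) made up the 6. Apart from Notch3 these rested on 10 to 17 UMIs in members. Hes1, a target in many cell types, Rbpj, the nuclear effector, and Notch2 were not called, at log2 fold changes of 0.30, -1.35 and -1.53. Without the OsxCre library only 3 of the Notch genes were called higher, and without the CKO library 3.

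Genes that set vascular tone, a list that shares Kcnj8, Abcc9 and Rgs4 with the pericyte list, had a median of 4.04, with 12 of 24 tested, 11 higher and 0 lower. Gja4, which couples mural and endothelial cells, stood at 493 CPM in Prx1Cre members, 183 in OsxCre, 641 in control and 369 in CKO, against 1.95, 0, 1.67 and 1.45 in other cells. Rgs4 gave 739.8, 306, 440.4 and 369 in members and at most 7.82 in other cells. Both were read in members of every library at levels far above those of other cells. The subunits of the nitric oxide receptor, Gucy1b1 (5.58 ± 0.51) and Gucy1a1 (3.76 ± 0.50), and genes downstream of it, the kinase Prkg1 (7 UMIs in members, 2.71 ± 0.75) and the phosphodiesterases Pde3a (18 UMIs, 4.22 ± 0.58) and Pde5a (16 UMIs, 2.37 ± 0.59), were higher. So were the angiotensin receptor Agtr1a (9 UMIs, 4.56 ± 0.68) and the endothelin receptor Ednra (2.29 ± 0.50), the latter at 550.3 in OsxCre members against 61.7, 160.1 and 205 in Prx1Cre, control and CKO.

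Matrix genes were divided. Of 17 basement membrane genes 16 were tested, 8 higher and 1 lower. Col18a1 (4.96 ± 0.47), Sparcl1 (5.72 ± 0.41), Col4a2 (1.53 ± 0.40), Col4a1 (1.02 ± 0.37), Lamb2 (1.55 ± 0.46) and Lamc1 (1.41 ± 0.47) were higher, whereas Sparc, abundant in bone-forming cells, was lower (-2.0 ± 0.43). Without the OsxCre library 5 of the basement membrane genes were higher and 3 lower. Of 16 fibrillar matrix genes, all tested, elastin (Eln, 4.96 ± 0.61), Col3a1 (2.14 ± 0.36) and Postn (1.91 ± 0.49) were higher and 6 lower (Bgn, Fn1, Lum, Col1a2, Dcn and Col1a1), with a median of -0.51. Eln had 14 UMIs in members, and Postn was low in CKO members (2 UMIs) against 432, 367 and 400.3 CPM in Prx1Cre, OsxCre and control.

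The genes of the marrow niche were lower. All 18 were tested, with 0 higher and 16 lower and a median of -2.79, or -2.45 with genes at 0 in members set to the limit of 3 counts. Cxcl12, the chemokine that retains blood stem cells, stood at 2096 CPM in Prx1Cre members, 2079 in OsxCre, 721 in control and 3546 in CKO, against 7966, 10767, 20213 and 23000.4 in other cells (log2 fold change -3.44 ± 0.46, adjusted p = 3.81e-12). Members were below other cells in each library. The top cell held 25 of the 34 Cxcl12 UMIs in Prx1Cre members, 23 of 34 in OsxCre, 3 of 18 in control and 85 of 173 in CKO. Outside control the member levels of Cxcl12 thus rested in large part on few cells. Cxcl14 (-3.56 ± 0.44), Hp (-3.49 ± 0.44), Gas6 (-3.31 ± 0.43), Igfbp5 (-1.88 ± 0.38), Serping1 (-1.78 ± 0.37) and Lpl (-1.34 ± 0.37) were lower as well. Ebf1, a transcription factor of marrow stroma, was an exception, at 1973, 2874, 1041 and 1148 in members against 520.3, 720.0, 952 and 946 in other cells (0.53 ± 0.34, adjusted p = 0.400). Osteoblast genes were lower in 9 of 10 (median -4.71, or -3.50 with genes at 0 set to the limit).

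The lists on cell state held few genes each, and their counts stand beside 3.71% higher and 8.82% lower over all genes tested. Of 14 immediate early genes tested, 1 was higher (Nr4a1, 2.72 ± 0.51, 0 UMIs in OsxCre members) and 2 lower, with a median of -0.79, and 7 were lower without the CKO library. Summed, that list lay below other cells at 8 weeks, at 8508 against 11799 CPM in Prx1Cre and 1345 against 10040 in OsxCre. At 16 weeks it lay above them, at 6966 against 4085 in control and 9245 against 6361 in CKO. Of 10 interferon response genes 0 were higher and 2 lower. Of 6 p53 targets 0 were called by edgeR and 0 by DESeq2, with 1 at an unadjusted p under 0.05. Pooled and summed with no filter, the p53 list had a mural to other ratio of 1.95 (1.66 to 2.28) and the nuclear envelope list 2.51 (2.03 to 3.06). By library the p53 sum lay below other cells at 8 weeks, at 678 against 1073 CPM in Prx1Cre and 856 against 1097 in OsxCre. At 16 weeks it lay above them, at 1561 against 681 in control and 2050 against 685 in CKO. Of 5 nuclear envelope genes Emd, which encodes the lamin-binding protein emerin, was higher (1.80 ± 0.52, with 22 of its 29 UMIs in CKO), while Lmna, whose product prelamin A is the substrate of the missing protease, was not called (0.65 ± 0.40, adjusted p = 0.352).

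**Figure D3:**
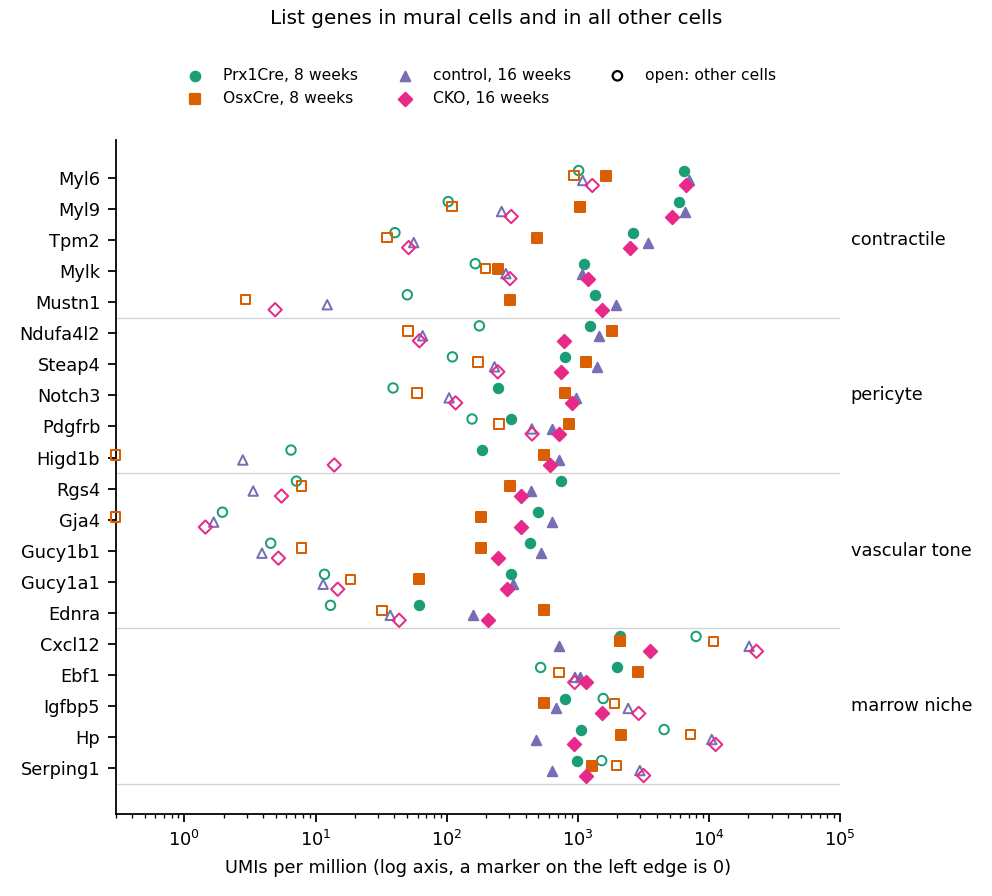
Level of 20 list genes in CPM (log axis) in the mural cells (filled) and in all other cells (open) of each library, 5 genes from each of 4 lists. For the contractile, pericyte and vascular tone genes the filled markers lie mostly to the right, for Cxcl12, Igfbp5, Hp and Serping1 to the left, and among the mural cells the OsxCre squares lie lowest for Myl9 and Tpm2.

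Marrow stromal cells are perivascular too. Against them alone the contractile, pericyte and vascular tone lists, pooled and summed with no filter, had mural to stromal ratios of 6.13, 6.02 and 14.2. Here too a gene could pass the filter through the members alone, so list counts are given as description. Cells passing the marrow stromal gate numbered 541 in Prx1Cre, 525 in OsxCre, 1676 in control and 2067 in CKO, and 10 gate genes were left out of the fit. Of 3982 genes tested, 255 were higher in mural cells (6.40%) and 427 lower (10.7%), with a median log2 fold change of -0.25. Without the CKO library these were 148 and 262, and DESeq2 gave 266 lower. Of 14 contractile genes 13 were higher (median 3.55), of 15 pericyte genes 14 (median 4.67) and of 11 vascular tone genes all 11 (median 4.57), with 0 lower in each. Sncg had 1 UMI in the stromal cells against 92 in the 87 members, a ratio of at least 1017 by its 95% counting interval, and Cspg4 had 3 against 23 (ratio 484, 146 to 2517). Pdgfrb was again not called, at 658 CPM in members and 509 in stromal cells (0.17 ± 0.28, adjusted p = 0.773). Col3a1 was higher (3.51 ± 0.28), while Ebf1 (0.26 ± 0.24, adjusted p = 0.576) and Sparc (0.27 ± 0.23, adjusted p = 0.519) were not called. Of 13 niche genes 11 were lower and 0 higher, while of 7 osteoblast genes 3 were lower and 4 not called. Of 5 p53 targets Btg2 (1.56 ± 0.34), Cdkn1a (1.21 ± 0.44) and Phlda3 (0.99 ± 0.36) were higher, but 0 of them without the CKO library, 1 without the control library and 0 by DESeq2. Also higher were Emd (2.05 ± 0.44) and Lmna (1.31 ± 0.39) among 3 nuclear envelope genes. The Notch list gave 5 higher of 8 (3 without the OsxCre library and 3 without CKO) and 1 lower (Notch2, -1.56 ± 0.55). The 10 genes with the largest negative changes, all at 0 in members, passed the filter through the stromal cells alone and are given as description. They included complement C3, Serpina3c and Vegfc, at least 7.56-fold, 7.32-fold and 5.52-fold lower.

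Contractile-led and Rgs5-led members differed in many genes that neither the rule nor the division had used. They were compared in the 3 Prx1Cre libraries, since OsxCre held no contractile-led member, with the library as a block. Of 175 genes deep enough to test, 17 were higher in contractile-led members (9.71%) and 25 lower (14.3%), with 26 higher without the control library and 15 lower without CKO. Of the 9 contractile list genes tested 7 were higher and 0 lower, with a median of 2.02 against 0.01 for all genes tested. Tpm2 stood at 4457 CPM in contractile-led and 414 in Rgs5-led members of Prx1Cre, 5908 and 186 in control, and 3939 and 591 in CKO (log2 fold change 3.19 ± 0.42, adjusted p = 0.000258). Myl9 gave 9025 and 2070.4, 10128 and 1765, and 8240.0 and 1329 in the same order (2.2 ± 0.31, adjusted p = 0.000316). For both genes the contractile-led cells were higher in each of the 3 libraries. Dstn, an actin-severing protein (2.98 ± 0.41), Sncg (2.91 ± 0.50), Crip1 (2.19 ± 0.29), Sparcl1 (2.18 ± 0.47), Cavin3, a caveola protein (2.16 ± 0.53), Mustn1 (2.12 ± 0.33) and Myl6 (2.02 ± 0.30) moved with them. The immediate early genes Junb (2.76 ± 0.40), Fos (2.49 ± 0.36) and Jund (1.42 ± 0.38), the 3 of that list tested, were also higher. Fos stood at 2786 and 690.1 in Prx1Cre, 2321 and 186 in control and 2385 and 345 in CKO.

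On the Rgs5-led side both fibrillar matrix genes tested (Mgp and Col3a1), both pericyte genes and 3 of 5 marrow niche genes were lower in contractile-led cells, with 0 higher, and of 2 basement membrane genes 1 was lower (Sparc) and 1 higher (Sparcl1). Niche genes called lower numbered 1 without the CKO library, pericyte genes 6 without Prx1Cre, and fibrillar genes 4 without Prx1Cre or without control, with other numbers of genes tested. Mgp, the matrix Gla protein that inhibits calcification, stood at 0 in contractile-led and 5797 in Rgs5-led members of Prx1Cre, 141 and 6783 in control, and 253 and 6695 in CKO (-5.50 ± 0.47, adjusted p = 1.41e-05). Steap4, a pericyte gene that reduces iron and copper, gave 0 and 1794, 70.3 and 3159, and 36.1 and 1674, on 2 UMIs against 81 (-5.76 ± 0.52, adjusted p = 1.41e-05). In each library both genes were far higher in the Rgs5-led cells. The long noncoding RNA Meg3 (-4.44 ± 0.79), Tmem176a (-3.50 ± 0.97), Col3a1 (-3.23 ± 0.48), Ebf1 (-2.73 ± 0.32), B2m (-2.71 ± 0.53) and H2-D1 (-2.58 ± 0.39) of class I antigen presentation, Hp (-2.55 ± 0.53), Tmem176b (-2.55 ± 0.47), Cxcl12 (-2.43 ± 0.59), Sparc (-2.35 ± 0.32) and Ndufa4l2 (-1.97 ± 0.41) were lower in contractile-led cells. Cxcl12 did not keep this order in control (774 and 650.4). Over all 4 libraries pooled, without a test, 141 of 838 genes (16.8%) were at least 2-fold higher in contractile-led members and 123 (14.7%) lower. Markers of marrow stroma and bone differed between the subsets. The marrow stromal gate genes summed to 924 CPM in contractile-led and 5402 in Rgs5-led members, and the osteoblast gate genes to 452 and 2323. Much of this lay in 2 CKO cells that passed the osteoblast gate, since without the members passing that gate the sums were 934 and 3109 for marrow stroma and 278 and 659 for osteoblasts. Without the members that passed any other gate they were 756 and 1063, and 245 and 394. Their part in the difference was not tested. Within the pericyte list only Steap4 and Ndufa4l2 were deep enough to test, and Notch3 (17 UMIs against 53) and Kcnj8 (1 against 14) were not tested.

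**Figure D4:**
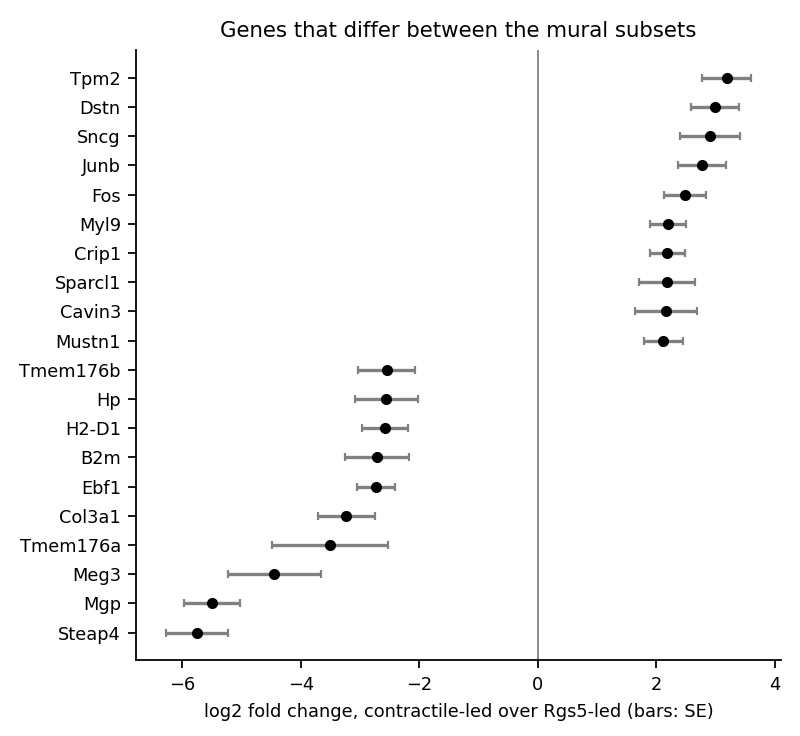
The 10 genes per direction with the largest log2 fold change between contractile-led and Rgs5-led mural cells in the 3 Prx1Cre libraries, with bars for the SE. Tpm2, at 3.19, was highest on the contractile side, and Steap4, at -5.76, and Mgp, at -5.50, on the Rgs5 side.

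Cell by cell, the genes most like the contractile share were, among 569 genes seen in at least 25% of members, Myl9 (Spearman 0.80), Myl6 (0.75), Dstn (0.74), Crip1 (0.70) and Mustn1 (0.70), over 87 cells that share libraries and depth. Those least like it were Mgp (-0.75), Sparc (-0.64), Ebf1 (-0.64), Col3a1 (-0.56) and Steap4 (-0.52). Genes of the contractile programme are known targets of serum response factor (SRF), which binds the CArG box. A script looked for that motif, by its standard 10-base form on both strands, in RefSeq promoter windows of GRCm38.p6 that span 250 bases before to 50 after each start site. It lay in 535 of 32851 promoters (1.63%), or in 488 of 27025 genes (1.81%). Of the 20 contractile list genes with an entry 2 held it, Myl9 and Myl6, against 0 of 11 pericyte list genes. The same 2 were the matches among the 5 genes most like the contractile share and among the 14 genes with an entry that were higher in contractile-led cells. Of the 19 with an entry that were lower, 1 held it (Meg3). Among all genes tested in that split, 131 had an entry and 4 of them held it (3.05%). A match is a description of the letters, not of a bound site. Both promoters with a match are given 5′ to 3′ on the gene's strand with the box in capitals, beside that of Rgs5, the gene that leads the other subset, in which the letters were not found. In Myl9 (plus strand, chr2:156775214-156775513) the box starts 161 bases before the start site, and in Myl6 (minus strand, chr10:128492960-128493259) 50 bases before. A further Myl6 promoter held no match. The window of Acta2, the most abundant contractile gene of the rule, held no exact match either. It does hold ccctatatgg and ccttgtttgg, each 1 base off the standard form, which the search did not count. Such near forms were not looked for in the other windows, so the absence of a match is not the absence of a binding site. The Rgs5 window lies on the plus strand at chr1:169655251-169655550. The promoters of Tagln, Myh11, Mgp and Pdgfrb were not analysed here.
Myl9: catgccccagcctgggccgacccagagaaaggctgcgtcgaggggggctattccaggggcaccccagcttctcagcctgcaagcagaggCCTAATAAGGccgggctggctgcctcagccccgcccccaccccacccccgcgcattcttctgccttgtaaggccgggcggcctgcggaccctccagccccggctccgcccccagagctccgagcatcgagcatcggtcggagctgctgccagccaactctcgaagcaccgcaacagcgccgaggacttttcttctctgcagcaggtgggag
Myl6: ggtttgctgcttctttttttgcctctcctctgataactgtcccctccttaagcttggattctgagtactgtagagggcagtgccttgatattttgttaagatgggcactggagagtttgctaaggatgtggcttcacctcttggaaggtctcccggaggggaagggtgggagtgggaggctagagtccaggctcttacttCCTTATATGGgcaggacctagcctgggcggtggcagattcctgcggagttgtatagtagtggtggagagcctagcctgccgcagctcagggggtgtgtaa
Rgs5: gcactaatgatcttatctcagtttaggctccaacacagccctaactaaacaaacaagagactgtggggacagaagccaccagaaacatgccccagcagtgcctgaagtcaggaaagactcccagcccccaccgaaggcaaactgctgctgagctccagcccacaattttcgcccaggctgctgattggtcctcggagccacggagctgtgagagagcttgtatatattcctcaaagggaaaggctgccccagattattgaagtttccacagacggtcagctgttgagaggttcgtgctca

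At 8 weeks the OsxCre members were Rgs5-led throughout and were set beside a mixed set of Prx1Cre members. With 1 library each there is no test. Among 216 genes with at least 20 UMIs in both sets together, 18 were at least 2-fold higher in OsxCre members (8.33%) and 43 at least 2-fold lower (19.9%). The contractile list summed to 8133 CPM in OsxCre and 28237 in Prx1Cre members, a ratio of 0.288 (95% interval 0.236 to 0.350), while in all other cells its ratio was 1.08. Of the list's 8 genes that were deep enough 6 were at least 2-fold lower. Myl9 had 17 UMIs against 96 and Tpm2 8 against 43. The immediate early list gave a ratio of 0.158 (0.0960 to 0.249) against 0.851 in other cells. Fos was at 0 in the 18 OsxCre members and at 30 UMIs in 8 of 17 Prx1Cre members, for an upper bound of the ratio of 0.130, and Junb at 2 against 34 UMIs (0.0583, 0.00679 to 0.228). Pericyte genes were higher as a sum (ratio 1.75, 1.33 to 2.31), as were basement membrane (1.92, 1.51 to 2.45) and fibrillar matrix genes (1.86, 1.48 to 2.36), which in other cells had ratios of 1.08, 0.846 and 0.827. Col3a1 stood at 46 UMIs against 14 (ratio 3.26, 1.76 to 6.42), Col4a1 at 21 against 5, the fatty acid carrier Fabp4 at 47 against 12, and the transcription factor Mef2c at 19 against 3 (6.28, 1.85 to 33.1). The unnamed predicted gene Gm42418 led the genes on the higher side, at 48 against 6, and was also higher in the other cells of OsxCre (ratio 2.54). Lmna was at 0 in OsxCre members against 9 UMIs, 6 of them in 1 Prx1Cre cell.

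Setting only Rgs5-led cells side by side removes the contractile-rich Prx1Cre cells by construction, so a smaller contrast in contractile genes is fixed by the choice and is given as a description. Among Rgs5-led members alone, 18 OsxCre against 8 Prx1Cre cells, Tpm2 had a ratio of 1.18 (0.284 to 6.91), Sncg 1.33 (0.107 to 69.8) and Myl9 0.502 (0.236 to 1.08), on 3, 1 and 15 Prx1Cre UMIs. Of 134 genes with enough UMIs, 14 were at least 2-fold higher and 10 lower. Junb came nearer to 1 than over all members, at a ratio of 0.148 (0.0146 to 0.826, 2 UMIs against 6), and Fos stood at 0 against 5 UMIs. Mgp, at a ratio of 1.94 over all members, came to 0.865, and Sparc moved from 2.02 to 1.19. Gm42418 (10.6, 2.79 to 90.3), Mef2c (8.42, 1.34 to 349.7) and Fabp4 (3.47, 1.48 to 9.93) stayed higher in OsxCre, while Col3a1 came to 1.70.

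At 16 weeks CKO and control members held the same share of contractile-led cells, 50% in each. Among 547 genes with at least 20 UMIs, 43 were at least 2-fold higher in CKO members (7.86%) and 24 lower (4.39%), without a test. The contractile list stood at 26219 CPM in CKO and 29343 in control members, a ratio of 0.894 (0.815 to 0.980), and moved to 1.05 (0.957 to 1.15) when members that passed any other gate were left out. The pericyte list had a ratio of 0.768 (0.638 to 0.926), or 0.731 (0.600 to 0.892) without those members. Its most abundant genes included Steap4 (36 UMIs against 35, ratio 0.527, 0.321 to 0.864). The vascular tone list had a ratio of 0.733 (0.547 to 0.986), with an interval of 0.554 to 1.03 without those members. Notch, basement membrane and fibrillar matrix sums had ratios of 0.970, 0.985 and 0.970, with intervals that spanned 1. In all other cells the basement membrane and fibrillar ratios were 0.585 and 0.673.

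The largest excesses in CKO members lay in few cells. Spp1, which encodes osteopontin, had 494 UMIs in CKO and 4 in control members, a ratio of 63.2 (24.5 to 233), but 468 of these lay in 1 cell, and without the members that passed another gate the counts were 4 and 4. The collagenase Mmp13 had 43 UMIs against 1, of which 42 lay in 1 cell (22.0, 3.75 to 889.7). The bone sialoprotein Ibsp had 69 against 6, of which 34 lay in 1 of the 14 CKO cells that carried it. The osteoblast list as a whole had a ratio of 13.2 (8.68 to 20.9) with these cells and 1.22 (0.540 to 2.94) without them, and the marrow niche list 2.35 (1.92 to 2.91) and 1.22 (0.964 to 1.55). Tnc, a matrix protein, had 25 UMIs in 3 CKO cells and 0 in control. In other genes on the higher side the top cell held less than in Spp1 and Mmp13. Pln, which restrains the calcium pump of smooth muscle, had 26 UMIs in 8 CKO cells (at most 5 in a cell) and 1 in control (ratio 13.3, 2.19 to 546). All other cells held 1 and 3 UMIs of it. The flow-responsive factor Klf2 had 61 UMIs in 8 CKO cells (at most 16 in a cell) against 3 (10.4, 3.4 to 51.9), and its ratio in other cells was 1.58. Zfp36 had 22 UMIs, 10 of them in 1 cell, against 2 (5.63, 1.38 to 49.4), Btg2 49 against 7 and Emd 22 against 3 (3.76, 1.13 to 19.6). The immediate early list had a ratio of 1.33 (1.11 to 1.59) in members and 1.56 in other cells. The lower side held Uba2 (9 UMIs against 17), mt-Nd5 (8 against 14), Eif3k (8 against 14), Timp4 (8 against 13), Ckb (10 against 16), Csrp1 (23 against 31, ratio 0.380, 0.212 to 0.673), Phlda3 (12 against 15) and Hspa8 (33 against 41, ratio 0.412, 0.253 to 0.668). Lmna had 13 against 9 UMIs (0.740, 0.293 to 1.96).

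**Figure D5:**
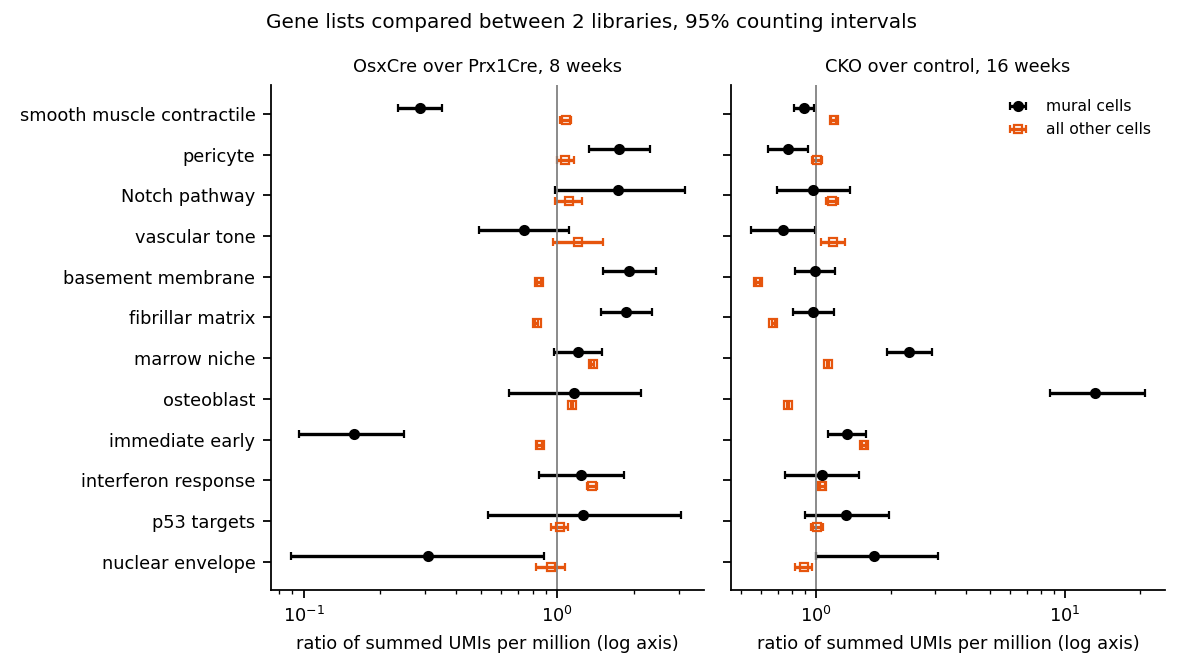
Ratio of each gene list's summed CPM between the 2 libraries of an age (log axis), in mural cells (filled) and in all other cells (open), with bars for the 95% counting interval. At 8 weeks the contractile (0.288) and immediate early (0.158) lists were lowest in OsxCre mural cells, and at 16 weeks the osteoblast list (13.2) was highest in CKO mural cells.

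The bulk libraries of the series came from sorted skeletal stem/progenitor cells (SSPCs) of control and CKO mice at 20 weeks of age, the periosteal kind (pSSPC, Ai9+ Sca1+) and the growth plate kind (gpSSPC, Ai9+ CD73+), in which the mural genes were scarce. In such samples fewer mural cells and less RNA per cell cannot be told apart. Over 12 RNA libraries, with 1333260 to 5315709 counts each, Rgs5 ran from 6.34 to 160.2 counts per 1000000 with a median of 39.6, Acta2 from 1.69 to 36.3 with a median of 21.0, Myh11 from 0 to 21.7 and Tagln from 0 to 2.45. The libraries numbered replicate 1 stood apart, with Myh11 and Tagln at 0 in all 4. Among the other 8 libraries Myh11 ran from 17.1 to 21.7 in pSSPC and from 1.56 to 2.96 in gpSSPC, and Rgs5 from 78.6 to 160.2 and from 34.3 to 42.2. The ranges of pSSPC and gpSSPC did not overlap in either gene, nor in Ly6a, Nt5e, Prrx1 and Mgp. The share of all genes without overlap was not computed, so this is no result about the mural genes. The ranges did overlap in Acta2 (20.4 to 36.3 and 6.42 to 22.2) and Tagln (0.604 to 2.45 and 0 to 1.56). The same held for Tinagl1 (9.21 to 12.3 and 6.16 to 12.7) and Myl9 (83.2 to 101 and 95.4 to 122). Within pSSPC Rgs5 stood at 32.3, 78.6 and 91.5 in the control libraries and at 106, 160.2 and 156 in the CKO libraries, replicates 1 to 3. The control and CKO values did not overlap, and the share of all genes for which this holds was not computed. In replicates 2 and 3 Myh11 went the other way, at 21.7 and 19.3 in control and 17.5 and 17.1 in CKO, while Acta2 stood at 20.4 and 22.1 in control and 34.0 and 36.3 in CKO. Pdgfrb stood at 115, 112 and 121 in control and 186, 64.0 and 71.7 in CKO. In gpSSPC, Acta2 stood at 1.69, 22.2 and 21.6 in control and at 22.3, 8.09 and 6.42 in CKO, replicates 1 to 3. Rgs5 there stood at 6.34, 42.2 and 34.8 in control and at 10.9, 37.0 and 34.3 in CKO. These differences were not tested. Pdgfrb, which had not been called in mural cells, ran from 43.2 to 186 over all 12. In each of the 12 peak lists of open chromatin by ATAC-seq 41.3% to 46.7% of all RefSeq promoter windows held a peak. The promoters of Myl9, Myl6, Acta2 and Notch3 overlapped a peak in all 12, as did that of Nt5e, and that of Rgs5 in 3 (2 of pSSPC and 1 of gpSSPC). The share of all windows with a peak in all 12 lists was not computed. Of the 2 Tinagl1 promoters 1 overlapped a peak in 5 lists and the other in 11. In GRCm38 the genes of the rule lie at chr1:169655501-169695813 (Rgs5, plus strand), chr19:34241090-34255590 (Acta2, minus), chr16:14194535-14291372 (Myh11, minus), chr9:45929619-45936058 (Tagln, minus) and chr4:130164454-130175122 (Tinagl1, minus).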

How the data were processed

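Single cells had been sequenced as 10X Chromium 3′ libraries (v2 chemistry). The authors deposited UMI counts per gene and cell, made with Cell Ranger (3.1.0 in the file headers) against mm10, and cells with at least 200 detected genes were kept here, 6205 of 6245 barcodes. No doublet step was stated or run. The study's methods give the cell numbers of the 16-week libraries with the genotypes exchanged. The labels were followed here, and Zmpste24 was lower in the library labelled CKO. Cells passing the chondrocyte gate made up 2.66% of the library labelled control and 0.593% of that labelled CKO, and the periosteal gate 2.90% and 1.19%. The study reports lower shares of both kinds of cell in the CKO. Where the exchange lies was not tested. The members and gene lists were chosen with earlier results of these data known.

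UMIs were summed per library over members, over all other cells, over cells passing a gate on 5 marrow stromal markers, and over contractile-led and Rgs5-led members. edgeR 4.0.16 (R 4.3.3; TMM scaling, filterByExpr, glmQLFit and glmQLFTest with the library as a block) compared these sums, with Benjamini-Hochberg adjustment over all genes tested and a threshold of 0.05. Rule genes, and gate genes where a gate defined the comparison, were left out of the fit and of the library sizes. Each library also gave both sides of a comparison, so the block is the library. The labels give 1 replicate per group. Contractile-led members were absent from OsxCre, so that fit used 3 libraries in place of the 4 planned. Between libraries of an age, CPM (counts per 1000000) and their ratios are given with exact Poisson or conditional binomial intervals and no test. A 2-fold ratio is counted for genes with at least 20 UMIs. The named genes are the 10 per direction with the largest log2 fold change among those called and of the same sign in every library, the 8 per direction with the largest ratio, the 5 most and least like the contractile share, and the members of the lists. Tested on simulated data for the comparison of mural with other cells, 29.2% of genes raised 4-fold were recovered, or 63.6% of those with at least 20 member UMIs, and 7.69% of genes lowered 4-fold, but only 2.0% of 2-fold rises and 4.88% of 2-fold falls, so that a gene not called may still differ, with 4 false calls among 5687 genes. In the comparison with marrow stromal-gate cells 77.6% of 4-fold and 2.13% of 2-fold rises, and 55.3% and 5.71% of such falls, were recovered. In the comparison of contractile-led with Rgs5-led members 100.0% of 4-fold changes in both directions, 10.0% of 2-fold rises and 20.0% of 2-fold falls were recovered. These last shares rest on few genes, 10 for each size of rise, 5 for 2-fold falls and 4 for 4-fold falls. In all 3 simulations the spread of counts between libraries was a fixed setting and was not estimated from these data. Alternatives were median-of-ratios scaling, DESeq2 1.42.0, no low-count filter, no library block, each library left out, a stricter rule (1% and 5 UMIs), a looser rule (0.25% and 2 UMIs), a rule after thinning to 500 UMIs and the removal of members passing other gates. The Rgs5-led, contractile-led and any-other-gate subsets were added after seeing the data.

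For bulk RNA the authors deposited whole-number counts per gene (modified Smart-seq2 with UMIs, STAR and HTSeq), turned into CPM here. For ATAC-seq the authors deposited other values, namely peak positions called per library with MACS2 2.2.7.1 after Bowtie2, and an overlap of at least 1 base with a RefSeq promoter was counted. Tables were handled with Python 3.11.15, pandas 2.3.3 and scipy 1.17.1.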

Additional observations from a re-analysis of the deposited data

Results flagged for a closer look

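In 16 cases the ratio between libraries in mural cells lay on the other side of 1 from that in all other cells, and neither counting interval spanned 1. Cases with an interval that spanned 1 were left out, such as Pcolce for OsxCre against Prx1Cre (5.62 in mural cells, 0.972 in other cells). The count of 16 is given without the number of genes and lists examined. The difference between the mural ratio and the ratio in other cells was not tested, and there was 1 library per group.

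For CKO against control the mural ratio was 63.2 for Spp1 (0.920 in other cells), 22.0 for Mmp13 (0.815), 5.89 for Ibsp (0.971) and 2.22 for Bgn (0.962). It was 0.804 for Myl9 (1.18). The osteoblast list had a mural ratio of 13.2 against 0.770, the contractile list 0.894 against 1.17 and the vascular tone list 0.733 against 1.17. Spp1 and Mmp13 each rested on 1 cell, with 468 of 494 and 42 of 43 CKO UMIs. For Ibsp 34 of 69 CKO UMIs lay in 1 cell. Without members passing another gate the osteoblast gate genes, Ibsp among them, fell from 83 to 10 UMIs in CKO. In control they fell from 14 to 5. Without members passing another gate the osteoblast list came to 1.22 (0.540 to 2.94) and the contractile list to 1.05 (0.957 to 1.15), the latter on the same side of 1 as in other cells.

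For OsxCre against Prx1Cre the mural ratio was 3.26 for Col3a1 (0.238 in other cells), 1.94 for Mgp (0.466) and 2.02 for Sparc (0.833), and 0.165 for the small RNA gene Bc1 (1.96) and 0.0661 for Flna (1.79). The contractile list had a mural ratio of 0.288 against 1.08, the basement membrane list 1.92 against 0.846 and the fibrillar matrix list 1.86 against 0.827. Among Rgs5-led members alone Mgp came to 0.865 and Bc1 to 1.77, on the same side of 1 as in other cells.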

How the results depend on the processing

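Of the 112 list and named genes called in mural against other cells, 88 to 112 stayed called under each alternative and 0 changed sign. With no library (replicate) block that comparison gave 192 genes higher and 448 lower, the one with marrow stromal-gate cells 252 and 448, and contractile-led against Rgs5-led members 16 and 23. Leaving out 1 library at a time, genes higher in mural than in other cells numbered 122 (without CKO) to 230 and genes lower 269 (without control) to 457, against marrow stromal-gate cells 148 (without CKO) to 302 and 262 (without CKO) to 497, and between contractile-led and Rgs5-led members 13 to 26 (without control) and 15 (without CKO) to 35. DESeq2 gave 242 genes lower than in other cells and 266 lower than in marrow stromal-gate cells. Without the low-count filter the latter was 724, and 33 genes were higher in contractile-led members. The pooled counts for that split ran from 85 (without CKO) to 142 higher and from 73 (without CKO) to 107 lower, and to 2409 and 3550 with no minimum of UMIs. Ratio counts moved with the UMI minimum: at 10 UMIs and at 50 UMIs, CKO against control gave 168 and 10 higher and 106 and 5 lower, and OsxCre against Prx1Cre 77 and 7 higher and 122 and 10 lower. For CKO against control, 16 genes were higher in contractile-led members alone, 26 without members passing any other gate, and 15 lower under the stricter rule or in Rgs5-led members alone. For OsxCre against Prx1Cre 10 were lower in Rgs5-led members alone. Signs turned for Bglap (0.97), Col1a1 (1.61) and Lum (1.02) against marrow stromal-gate cells with the looser rule. The CKO to control ratio turned for Spp1 to 0.642 without gated members and 0.514 in contractile-led members, for Mmp13 to 0 without osteoblast-gate or any gated members and 0.565 under the stricter rule, and for Ibsp to 0.771 in contractile-led members. Csrp1 and Ckb, at 1 and 3 CKO UMIs against 0 in Rgs5-led members, had no finite ratio. The OsxCre ratio turned for Tpm2 (1.18), Sncg (1.33) and Bc1 (1.77) in Rgs5-led members. Where no construction shows it, the cause was not tested. With 17 to 34 members per library, fewer simulated 4-fold rises against other cells were recovered over all genes (29.2%) than among those with at least 20 member UMIs (63.6%). Against marrow stromal-gate cells these were 77.6% and 86.8%. Between contractile-led and Rgs5-led members both were 100%, on 10 genes. The planned scaling and block alternatives for a 4-library split were run in 3 libraries.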
